A study of Macaca mulatta with 30 samples.

Results

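Alveolar type 1 cells are the thin, flat epithelial cells that cover most of the gas exchange surface of the lung. They lie against the capillaries, share a basement membrane with them, and let gas, ions and water pass between air space and blood. In the fetus they arise from distal epithelial progenitors, alongside the cuboidal type 2 cells that make surfactant. Genes used to recognise type 1 cells encode a cell surface receptor, membrane and caveola proteins, a chloride channel family member and regulators of the cytoskeleton and of transcription.

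The genes described here were 8 that mark these cells, namely AGER, HOPX, CAV1, PDPN, RTKN2, EMP2, CLIC5 and AKAP5, chosen by gene symbol. In the lung count table, 6 of the 8 were matched to a row among 30246 gene identifiers, and all 6 were among the 17644 that had enough reads to be tested. EMP2 and AKAP5 were not matched to a row of the lung table and are not analysed here in lung.

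RNA was sequenced from the lungs of 15 fetal rhesus macaques, labelled wild type and of gestational day 124 to 130. Their mothers received an intramuscular (IM) injection of saline or of a corticosteroid, which is given before preterm birth to mature the fetal lung. The clinical drug, labelled Celestone, combines betamethasone phosphate with betamethasone acetate and was given at 0.25 mg/kg, with delivery after 4 h or 5 days. Betamethasone-acetate alone (Beta-Ac) was given at 0.125 mg/kg, with delivery after 6 h or 5 days. Each of these 4 groups and the saline control group held 3 animals, named here by their animal number. The early groups of the 2 drugs therefore differed in dose, formulation and time at once, which cannot be told apart.

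Library depth, as reads counted on genes, ran from 14.1 to 45 M reads, with the most in animal 15-81 at 4 h after the clinical drug. The unit of all levels is CPM, reads per 1 M reads after TMM normalization, which corrects for differences in composition between libraries. Levels of different genes are not compared, since no gene lengths were used. A gene was called changed at a fold change of at least 1.5, an unadjusted p under 0.05 and a q (p adjusted over all genes tested by Storey's method) under 0.1 in edgeR's quasi-likelihood test. Of 4 glucocorticoid target genes followed, 3 were matched and tested, and these marked both early groups. FKBP5, PER1 and ZBTB16 were all called induced against control. Log2 fold changes were 2.3 to 4.94 for the clinical drug at 4 h, where 7.4% of all genes were called. They were 1.79 to 3.72 for Beta-Ac at 6 h, where 0.442% were called. For Beta-Ac the call of FKBP5 was lost without animal 15-92 and that of PER1 without 15-92 or 17-254. Compared directly, FKBP5 was higher at 4 h after the clinical drug (log2 1.73, edgeR q = 0.0268). It was the only 1 of the 3 called there, where 6.74% of all genes were called. All 3 clinical drug animals of the 4 h group had numbers beginning with 15, as had control animals 15-92 and 15-101. The other control and all remaining treated animals had numbers beginning with 16 or 17. What these numbers stand for is not stated in the labels. The 4 h group could be set against controls with numbers beginning with 15, but not against treated animals with such numbers, so in comparisons with the other treated groups the numbers and the treatment cannot be told apart.

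At 4 h after the clinical drug, 2 of the 6 genes were called changed, HOPX upward and RTKN2 downward, where 7.4% of all genes tested were called. For Beta-Ac at 6 h none of the 6 was called (0.442% of all genes), and none had an unadjusted p under 0.05 (11.5% of all genes). At 5 days none was called for the clinical drug (0% of all genes) or for Beta-Ac (0.00567%). One gene had an unadjusted p under 0.05 in each of these 5-day comparisons, HOPX for the clinical drug (4.39% of all genes) and CAV1 for Beta-Ac (6.42%). With the 5-day groups of both drugs pooled, none was called (0.0113% of all genes) and none had an unadjusted p under 0.05 (6.17%). The median log2 fold change of the 6 genes was 0.07, 0.02, -0.01 and 0.01 in the order clinical drug 4 h, Beta-Ac 6 h, clinical drug 5 days and Beta-Ac 5 days, against 0.02, 0.02, 0 and 0.01 for all genes tested. In none of these 4 comparisons did all 6 genes lie on the same side of the controls. In whole lung, fewer cells of a type and less RNA per cell cannot be told apart.

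**Figure D1:**
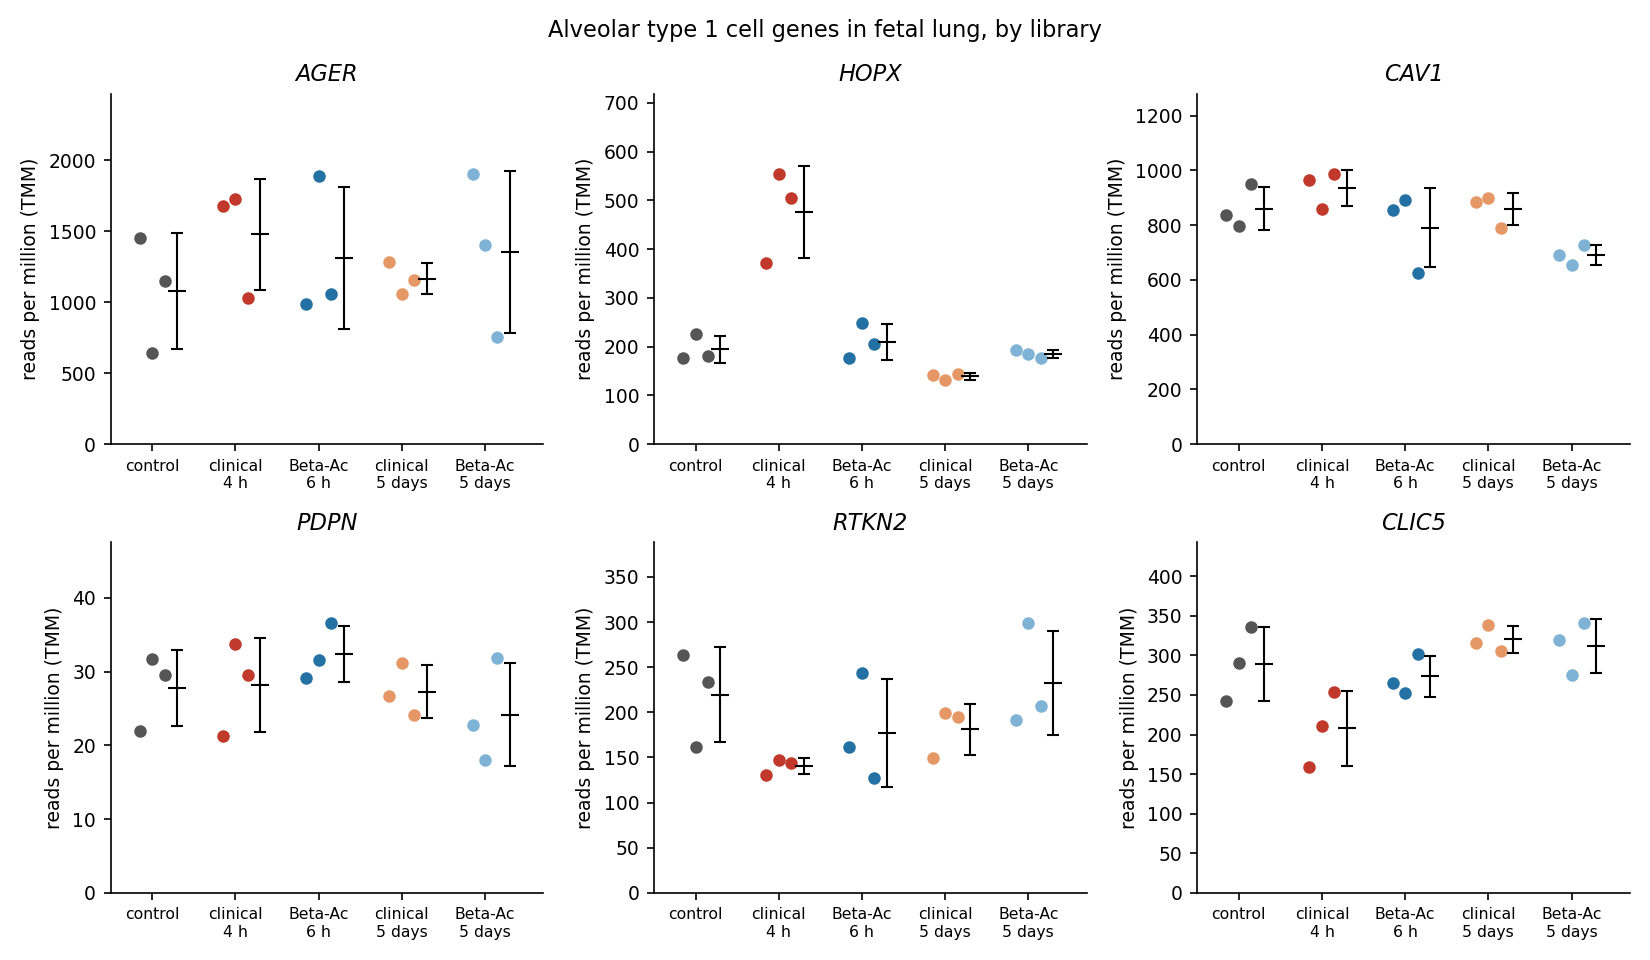
Levels of the 6 genes in the 15 lung libraries. The vertical axes give CPM after TMM normalization and start at 0, each point is 1 animal, and the bars to the right of the points give mean and SD (n = 3). HOPX stood at 372 to 553 at 4 h after the clinical drug and at 249 or less in every other library, whereas AGER was spread widely within most groups.

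HOPX encodes a small homeodomain protein that does not bind DNA itself and is used as a mark of type 1 cells and their precursors. Of the 6 genes it had the largest fold change against control. In controls it stood at 227, 176 and 180 CPM in animals 15-92, 15-101 and 16-113. At 4 h after the clinical drug the levels were 372, 553 and 504 CPM in animals 15-81, 15-85 and 15-97. All 3 treated animals lay above all 3 controls, and the lowest of them lay above every library of every other group. Group means were 194 ± 28 and 477 ± 94 CPM (SD, n = 3), and HOPX was 2.45-fold higher after treatment (log2 fold change 1.29, SE 0.15, 95% interval 0.96 to 1.62, edgeR q = 0.000143). The call held with each of the 6 animals left out in turn, with log2 fold changes of 1.16 to 1.43. It was 1.16 without animal 15-85, the highest of the treated animals. Without control 16-113, when all animals compared had numbers beginning with 15, it was 1.24 (SE 0.18, edgeR q = 0.00162).

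At 6 h after Beta-Ac, HOPX was at 176, 249 and 206 CPM in animals 16-123, 16-131 and 17-254. These levels overlapped those of the controls. The mean was 211 ± 37 CPM (SD, n = 3), with a log2 fold change against control of 0.12 (SE 0.15, 95% interval -0.21 to 0.44, edgeR q = 0.613). Compared directly, HOPX was 2.26-fold higher in the 4 h animals of the clinical drug than in the 6 h animals of Beta-Ac (log2 1.18, SE 0.15, edgeR q = 0.00138). It was the only 1 of the 6 genes called in that comparison, in which 6.74% of all genes were called.

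At 5 days after the clinical drug, HOPX was at 142, 131 and 145 CPM in animals 16-115, 16-120 and 16-126. All 3 lay below all 3 controls. The mean was 139 ± 7.48 CPM (SD, n = 3) and the log2 fold change -0.48 (SE 0.15, 95% interval -0.81 to -0.16), with an unadjusted p of 0.00684 but an edgeR q of 0.931, so it was not called. Lower levels of every treated animal than of every control were seen in 6.02% of all genes in this comparison. Between 4 h and 5 days after the clinical drug, HOPX differed 3.42-fold (log2 1.77, SE 0.16, edgeR q = 1.84e-05), in a comparison that called 2 of the 6 genes and 10.4% of all genes.

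Beta-Ac at 5 days left HOPX at 193, 184 and 177 CPM in animals 16-128, 16-130 and 16-136, within the range of the controls. The log2 fold change was -0.07 (SE 0.15, 95% interval -0.4 to 0.25, edgeR q = 0.916). At 5 days the log2 difference of the clinical drug from Beta-Ac was -0.41 (95% interval -0.73 to -0.08, unadjusted p = 0.0179, edgeR q = 0.999), where doses also differed. No gene of the 6, and 0% of all genes, was called between the 2 drugs at 5 days. An unadjusted p under 0.05 was found for 2 of the 6, HOPX and CAV1, and for 3.15% of all genes. CAV1 was higher after the clinical drug (log2 0.31, 95% interval 0.05 to 0.58, edgeR unadjusted p = 0.0237, q = 0.999). Between 6 h and 5 days after Beta-Ac none of the 6 was called (0.261% of all genes) and none had an unadjusted p under 0.05 (7.91%).

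**Figure D2:**
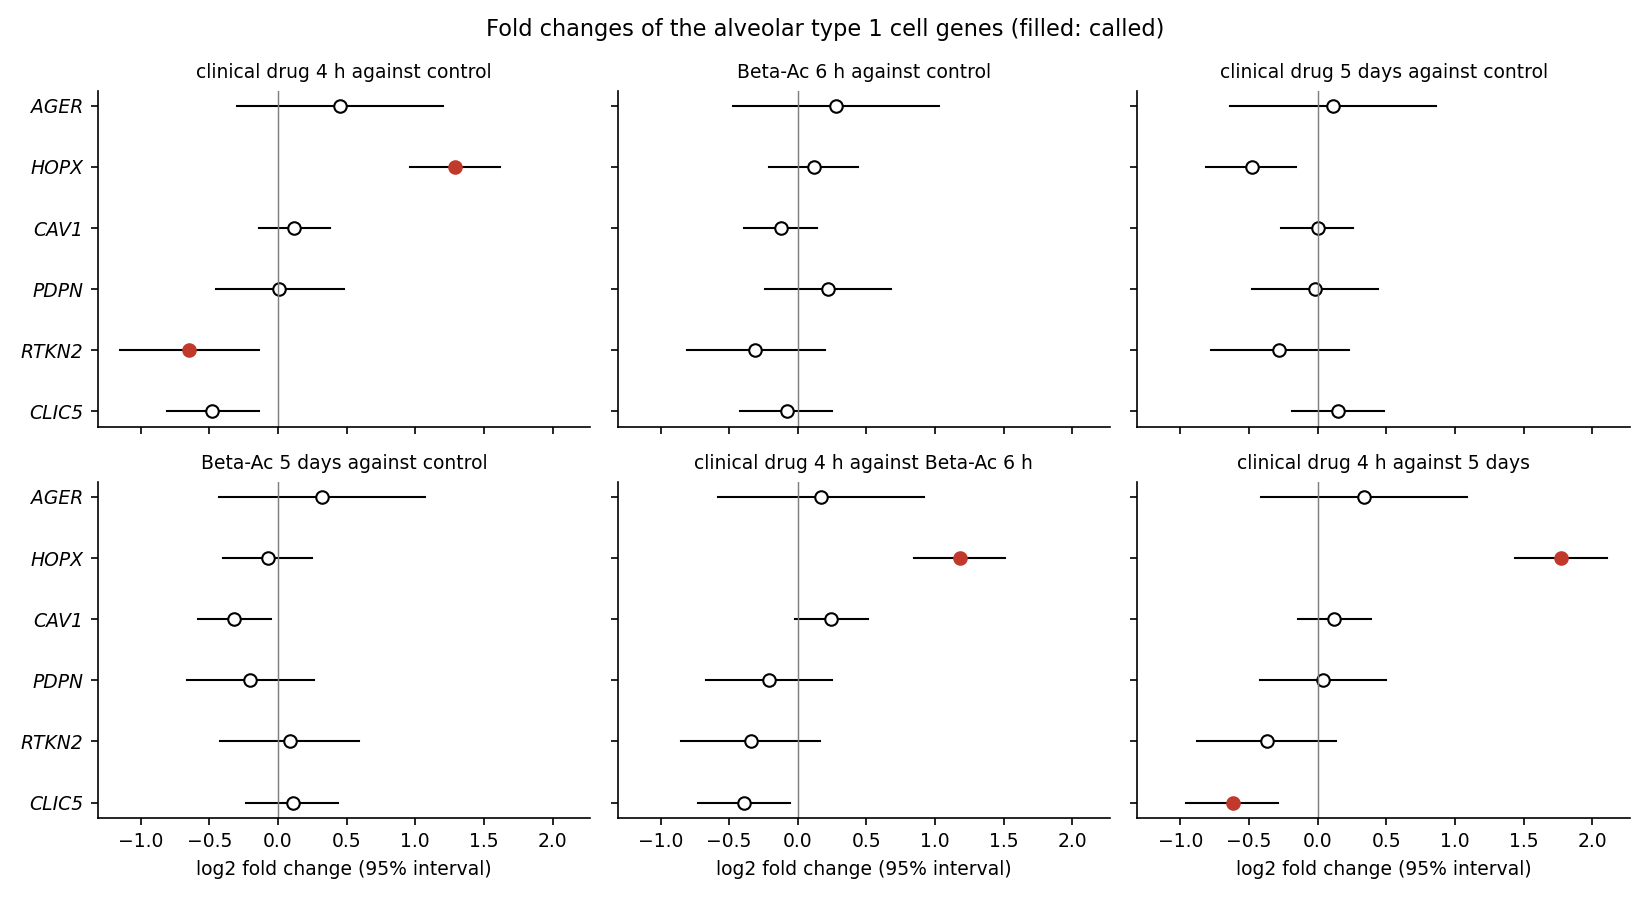
Log2 fold changes of the 6 genes in 6 comparisons (horizontal axis) with 95% intervals from edgeR's fit of all 15 libraries. Filled points were called. The HOPX point is filled in the 3 comparisons that hold the clinical drug at 4 h, where it lies at 1.29, 1.18 and 1.77.

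RTKN2 is used as a mark of type 1 cells among lung epithelial cells. Its levels in controls were 161, 263 and 234 CPM in animals 15-92, 15-101 and 16-113, and at 4 h after the clinical drug 130, 147 and 144 CPM in animals 15-81, 15-85 and 15-97. The treated animals lay below all controls, close to control 15-92. RTKN2 was 1.57-fold lower (means 219 ± 52.6 and 140 ± 9.08 CPM, SD, n = 3, log2 fold change -0.65, SE 0.24, 95% interval -1.15 to -0.14, edgeR q = 0.0947). This call lay close to the q threshold. It was lost without animal 15-81 (q = 0.173), 15-85 (q = 0.162), 15-97 (q = 0.152), 15-101 (q = 0.253) or 16-113 (q = 0.214), and it held without 15-92, where the log2 fold change was -0.85. It was thus not called among animals with numbers beginning with 15 alone, which is the comparison without 16-113 (log2 -0.6). It was also lost with Benjamini-Hochberg adjustment (adjusted p = 0.139 in edgeR) and without a filter on low counts (edgeR q = 0.132).

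In the remaining groups RTKN2 overlapped the controls. Beta-Ac animals had levels of 161, 243 and 127 CPM at 6 h (log2 fold change -0.31, SE 0.23, edgeR q = 0.485). At 5 days they were 149, 199 and 195 CPM after the clinical drug (log2 -0.28, SE 0.23) and 192, 299 and 207 CPM after Beta-Ac (log2 0.09, SE 0.23). The highest level of the 15 libraries, 299 CPM, was in animal 16-130, and the lowest, 127 CPM, in animal 17-254. The direct difference between the early groups, log2 -0.34, was not called (95% interval -0.85 to 0.16, edgeR q = 0.27).

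CLIC5, a member of the chloride intracellular channel family that links membranes to the actin cytoskeleton, also had low levels at 4 h after the clinical drug. Controls 15-92, 15-101 and 16-113 had 290, 242 and 336 CPM, and treated animals 15-81, 15-85 and 15-97 had 159, 211 and 254 CPM. The groups overlapped in animals 15-97 and 15-101. The log2 fold change of -0.48 (SE 0.16, 95% interval -0.81 to -0.14) had an edgeR q of 0.0664, but its size of 1.39-fold was under the 1.5-fold threshold, so it was not called. It was called without animal 15-97 (log2 -0.66) or without 15-101 (log2 -0.59). Of the 15 lung libraries, the lowest level of CLIC5 was that of animal 15-81, at 159 CPM.

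At 6 h after Beta-Ac, CLIC5 was at 265, 253 and 302 CPM, and at 5 days it was at 316, 339 and 306 CPM after the clinical drug and at 320, 275 and 341 CPM after Beta-Ac. All 3 of these groups overlapped the controls, with log2 fold changes of -0.08, 0.15 and 0.11 (SE 0.16 each). Between the 2 times after the clinical drug the levels did not overlap. CLIC5 was 1.54-fold lower at 4 h than at 5 days (log2 -0.62, SE 0.16, 95% interval -0.96 to -0.29, edgeR q = 0.0152). That call was lost without animal 15-81 (log2 -0.48) or without 16-120 (log2 -0.58, q = 0.0608). Against Beta-Ac at 6 h the log2 difference was -0.39 (95% interval -0.73 to -0.06, unadjusted p = 0.025, edgeR q = 0.107), which was not called.

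AGER encodes the receptor for advanced glycation end products (RAGE), which in the lung is most abundant in type 1 cells. In controls it stood at 642, 1450 and 1150 CPM in animals 15-92, 15-101 and 16-113. In the clinical drug group at 4 h, animals 15-81, 15-85 and 15-97 had 1680, 1730 and 1030 CPM, and in the Beta-Ac group at 6 h, animals 16-123, 16-131 and 17-254 had 990, 1890 and 1060 CPM. All 3 groups overlapped, with a single low or high animal in each. Log2 fold changes were 0.45 (SE 0.35, 95% interval -0.3 to 1.2, edgeR q = 0.377) and 0.28 (SE 0.35, 95% interval -0.47 to 1.03, edgeR q = 0.602). Both intervals include no change as well as a 1.5-fold higher level.

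At 5 days AGER was at 1280, 1060 and 1160 CPM after the clinical drug and at 1900, 1400 and 758 CPM after Beta-Ac. The clinical drug animals lay close together, with an SD of 108 CPM, whereas the Beta-Ac animals had an SD of 573 CPM. Log2 fold changes against control were 0.11 and 0.32 (SE 0.35 each) and were not called. In the RefSeq rhesus annotation AGER overlaps PBX2, a gene of a homeodomain protein. PBX2 had log2 fold changes of -0.08 to 0.06 over the 9 comparisons and was called in none of them. How reads shared by overlapping genes were treated is not given in the sources used here.

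CAV1 encodes caveolin-1, the coat protein of caveolae, which are abundant in type 1 cells and in the endothelium beneath them. Its level varied least of the 6 genes over the 15 libraries, with the highest 1.57 times the lowest. Controls had 795, 838 and 949 CPM, and the clinical drug group had 963, 859 and 985 CPM at 4 h. The Beta-Ac group had 855, 892 and 626 CPM at 6 h. Neither early group was called against control, with log2 fold changes of 0.12 and -0.12 (SE 0.12 each). At 5 days CAV1 was at 886, 899 and 791 CPM after the clinical drug, overlapping the controls, and at 692, 653 and 727 CPM after Beta-Ac, below every control. The latter log2 fold change was -0.32 (SE 0.12, 95% interval -0.58 to -0.05, unadjusted p = 0.0223, edgeR q = 0.693), and it was not called. Every treated animal below every control was found in 6.4% of all genes in that comparison.

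Endothelial marker genes had low values in the same Beta-Ac animals. The summed level of 6 such genes was 2560 to 2740 CPM at 5 days after Beta-Ac and 2980 to 3510 CPM in controls. All 6, CA4, CDH5, KDR, PECAM1, TEK and VWF, had negative log2 fold changes, from -0.25 for PECAM1 to -0.43 for TEK, and none was called. Of all 17644 genes tested, 8538 had negative log2 fold changes in this comparison and 0.00567% were called. The part of endothelial cells in the level of CAV1 was not tested.

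PDPN encodes podoplanin, a mucin-like membrane protein of type 1 cells that is also made by lymphatic endothelium and mesothelium. It had the fewest reads of the 6 genes, from 321 to 923 per library, and none of the 6 was at 0 in any lung library. Its levels were 31.7, 22 and 29.6 CPM in controls 15-92, 15-101 and 16-113, and 21.3, 33.8 and 29.5 CPM at 4 h after the clinical drug. The Beta-Ac group had 29.1, 31.6 and 36.6 CPM at 6 h. After 5 days the clinical drug group had 26.7, 31.1 and 24.1 CPM and the Beta-Ac group 22.7, 18 and 31.8 CPM. All treated groups overlapped the controls. Log2 fold changes were 0.01, 0.22, -0.02 and -0.2 in the order clinical drug 4 h, Beta-Ac 6 h, clinical drug 5 days and Beta-Ac 5 days, with SEs of 0.21 to 0.22, and none was called.

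Counted over the 6 genes, at 4 h after the clinical drug 1 gene (HOPX) had every treated animal above every control, against 11.1% of all genes tested, and 1 gene (RTKN2) had every treated animal below, against 10.2%. None did so at 6 h after Beta-Ac, where 9.03% of all genes lay above and 7.27% below. At 5 days none lay above for the clinical drug (6.25% of all genes) or for Beta-Ac (5.75%), and 1 gene lay below in each, HOPX and CAV1 respectively. A single gene of 6 is too few to set against these shares.

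Across the 15 lung libraries the 6 genes did not rise and fall together. Of their 15 pairs, 8 had a positive Pearson correlation of log2 CPM, from -0.7 for HOPX with CLIC5 to 0.33 for HOPX with CAV1. These values hold the differences between groups as well as those between animals. After subtraction of the group means the HOPX and CLIC5 value was 0.34, and the extremes were 0.77 for PDPN with CLIC5 and -0.53 for AGER with PDPN. All values are descriptions over the same 15 libraries of differing depth.

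The 5 genes whose log2 CPM was most like that of AGER over the 15 libraries, among 12455 genes with a symbol, were TMEM31 (Pearson 0.829), SDR42E2 (0.78), FSCN2 (0.732), VSIG8 (0.729) and PKD1L3 (0.713). All 5 were low in these lungs. Their median levels ran from 0.303 CPM for TMEM31 to 9.1 CPM for FSCN2, and TMEM31 had between 0 and 18 reads per library. HOPX had closer companions. By the same measure, which was chosen for HOPX after its values were seen, they were PALLD (0.96), TNS2 (0.951), RASL10B (0.942), MLX (0.934) and MMP28 (0.931). PALLD and TNS2 encode proteins of actin fibres and focal adhesions. The likeness includes the difference of the 4 h group that HOPX itself shows.

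A further 30 genes reported in type 1 cells were followed beside these 6, and 24 of them were matched and tested. At 4 h after the clinical drug 2 of the 24 were called, both upward, and none downward, a share close to the 7.4% of all genes. They were CLDN18, a tight junction protein of the alveolar epithelium, and SCNN1G, the gamma subunit of the epithelial sodium channel through which the lung clears fluid. In controls 15-92, 15-101 and 16-113 CLDN18 was at 74.8, 53.1 and 88.1 CPM, and at 4 h after the clinical drug it was at 131, 157 and 126 CPM, above every control (log2 0.93, SE 0.16, edgeR q = 0.00198). SCNN1G was at 39.4, 47.6 and 41.4 CPM in the same controls and at 59.5, 132 and 130 CPM in animals 15-81, 15-85 and 15-97 (log2 1.32, SE 0.32, edgeR q = 0.0187). Every treated animal lay above every control, as for 11.1% of all genes, and animal 15-81 had less than the other 2 treated animals. Both calls held with each of the 6 animals left out, while the number of the 24 genes called became 4 without 15-81, 15-85 or 16-113.

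Both genes had high levels at 6 h after Beta-Ac as well, without a call. CLDN18 was at 100, 108 and 128 CPM there (log2 0.64, edgeR q = 0.123) and SCNN1G at 54.6, 88.1 and 122 CPM (log2 1.05, edgeR q = 0.215), all above every control. Neither differed by a call between the 2 early groups (log2 0.29, edgeR q = 0.192, and log2 0.27, edgeR q = 0.412). At 5 days CLDN18 was at 136, 129 and 109 CPM after Beta-Ac (log2 0.79, edgeR q = 0.641) and at 90, 94.1 and 89.9 CPM after the clinical drug (log2 0.34). These were above every control too and were not called. SCNN1G overlapped the controls at 5 days, with log2 fold changes of 0.2 and 0.43.

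Against control, the share of all genes called ran from 0% (clinical drug, 5 days) to 7.4% (clinical drug, 4 h). The other 22 genes of the further type 1 list were not called against control in any group. Of its structural members, the laminin chain genes LAMA3 and LAMB3 and the basement membrane collagen COL4A3 lay between 0.04 and 0.14 on the log2 scale at 4 h after the clinical drug. COL4A4 was at 0.2 (SE 0.24) and AGRN at 0 (SE 0.1) in that comparison. The lowest value there was that of ICAM1, an adhesion molecule (log2 -0.65, SE 0.25, edgeR q = 0.112). NDNF, a secreted protein, had a log2 fold change of -0.58 and an edgeR q of 0.0313, with a size just under 1.5-fold. The median of the 24 was 0.09, against 0.02 for all genes, and the highest values at 4 h were the 2 called genes. Between 4 h and 5 days after the clinical drug 4 of the 24 were called, all higher at 4 h, where 10.4% of all genes were called. They were SCNN1G (log2 1.11), ITGB6 (0.74), ANXA3 (0.67) and CLDN18 (0.59). None of the 4 was called without animal 15-85, 2 of the further genes were called without 15-97 or without 16-126, and 5 without 15-81.

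**Figure D3:**
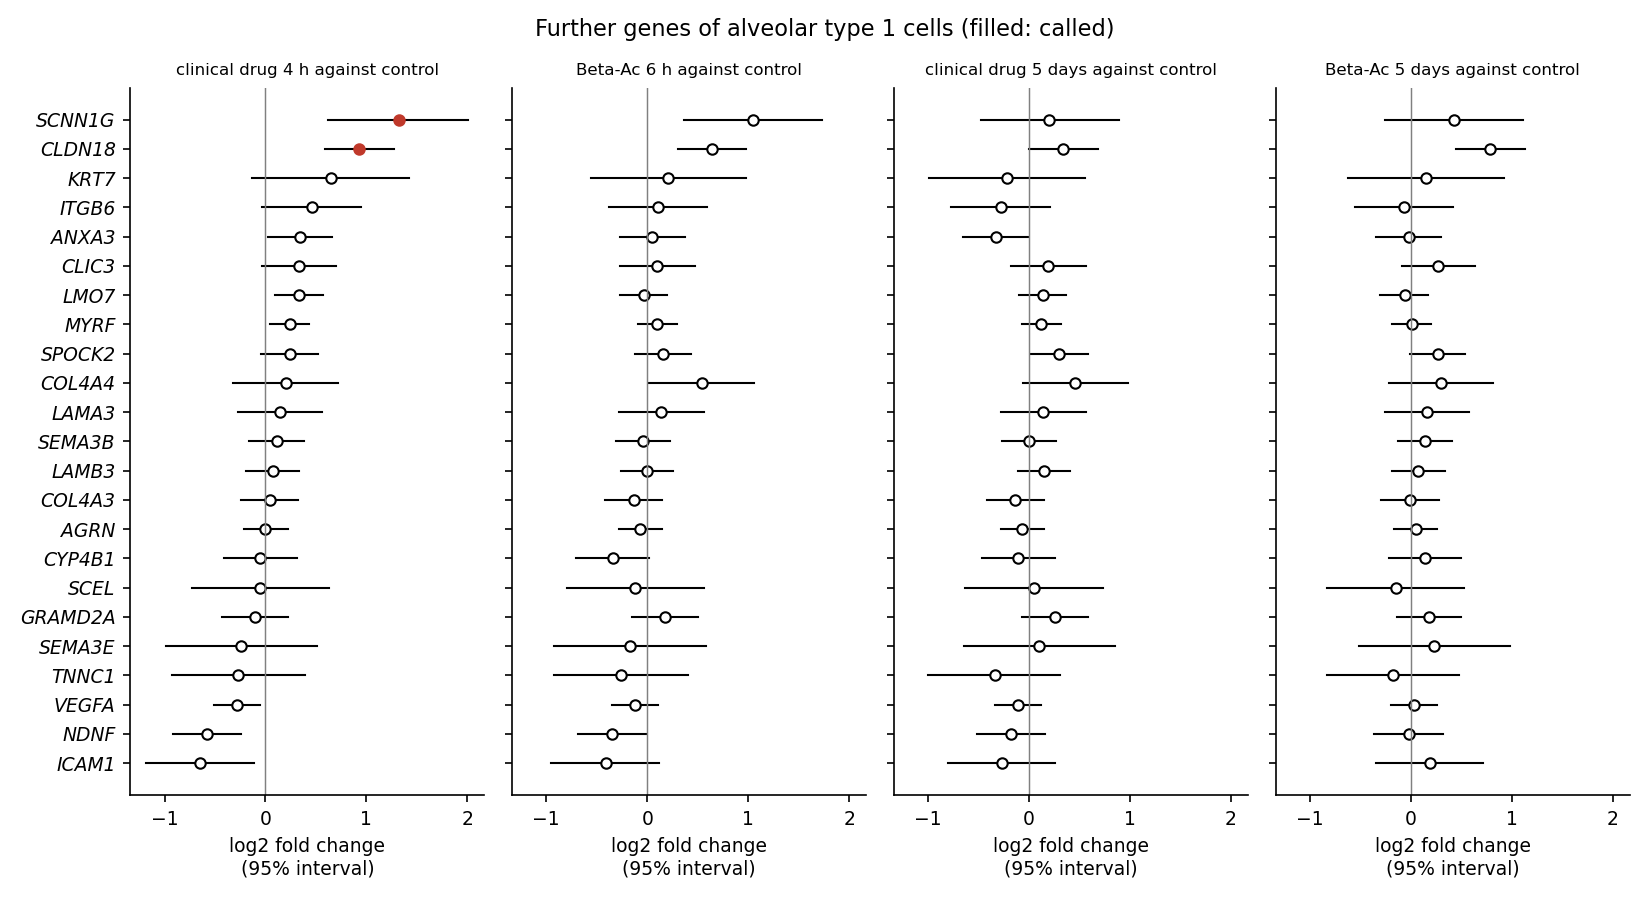
Log2 fold changes against control (horizontal axis) of 23 of the 24 further type 1 genes with 95% intervals, sorted by the value at 4 h after the clinical drug. Filled points were called, which held only for SCNN1G (1.32) and CLDN18 (0.93) in the first panel.

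Of 7 caveola genes followed beside CAV1, only CAVIN2 was matched. CAVIN2 encodes a coat protein that shapes caveolae together with caveolins. It was at 406, 274 and 303 CPM in controls 15-92, 15-101 and 16-113 and at 686, 798 and 697 CPM at 4 h after the clinical drug, 2.22-fold higher (log2 1.15, SE 0.19, edgeR q = 0.00156). All treated animals lay above all controls, as for 11.1% of all genes, while CAV1 in the same animals differed by log2 0.12. At 6 h after Beta-Ac CAVIN2 was at 426, 439 and 617 CPM (log2 0.59, edgeR q = 0.229), and at 5 days its log2 fold changes were 0 and -0.06. CAVIN2 is also expressed in endothelium.

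**Figure D4:**
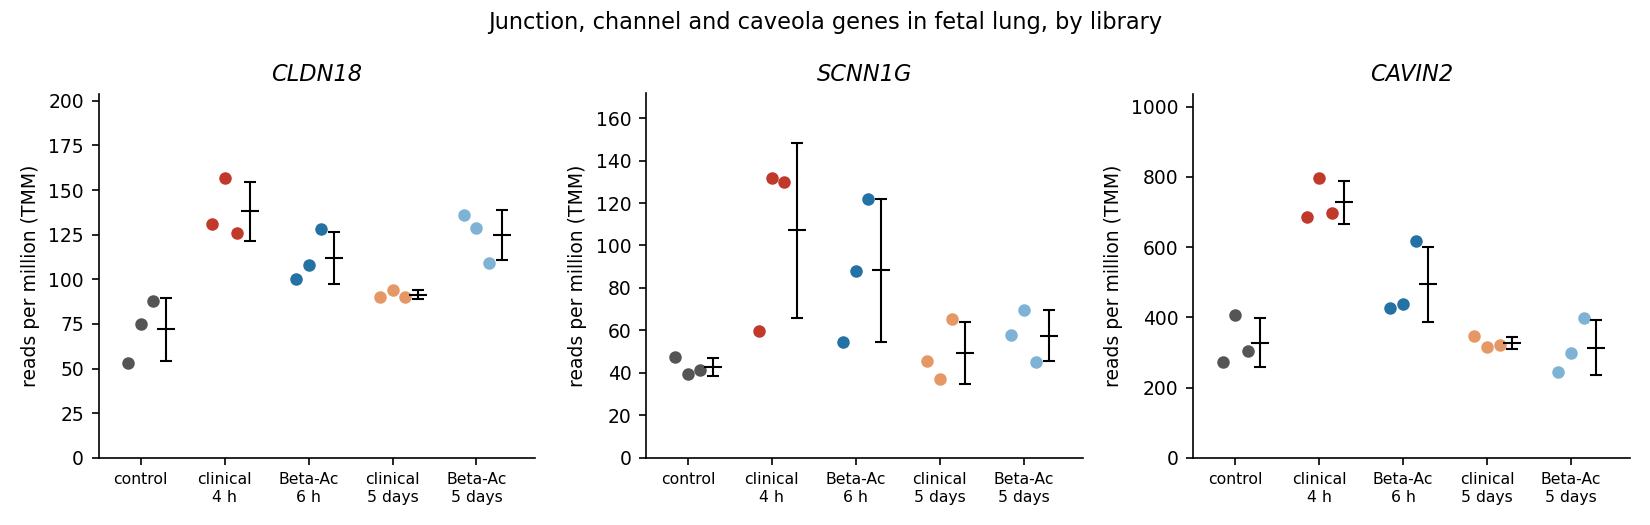
Levels of CLDN18, SCNN1G and CAVIN2 in the 15 lung libraries, in CPM after TMM normalization on axes that start at 0. Points are animals and bars give mean and SD (n = 3). In all 3 panels the clinical drug animals at 4 h (131, 157 and 126 CPM for CLDN18) lie above the controls.

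Ligands of RAGE were tested for 3 of 7 genes, S100A4, S100A9 and S100P, and none was called against control in any group. At 4 h after the clinical drug they ranged from log2 -0.67 for S100A4 to 1.05 for S100A9. Regulators of type 1 fate and YAP target genes were tested for 16 of 18 genes. The regulators include the Hippo pathway effectors YAP1 and WWTR1 (TAZ), their TEAD partners and the lung factor NKX2-1. None of the 16 was called against control in any group. Of all genes tested, 7.4% were called at 4 h after the clinical drug, but only 0.442% at 6 h after Beta-Ac. At 5 days the shares were 0% (clinical drug) and 0.00567% (Beta-Ac). Outside the 4 h group, a lack of calls was thus shared by nearly all genes and sets neither list apart. The extremes at 4 h after the clinical drug were ANKRD1, a YAP target (log2 1.49, SE 0.88), and WWTR1 (log2 -0.38, SE 0.16). YAP1 itself was at log2 0.04 (95% interval -0.26 to 0.34). Between 4 h and 5 days after the clinical drug, where 10.4% of all genes were called, 3 of the 16 genes were called, all of them YAP targets. ANKRD1 (log2 2.38, SE 0.9) and CCN2 (0.7, SE 0.28) were higher at 4 h and CCN1 (-0.66, SE 0.27) was lower. CCN1 and CCN2 encode matricellular proteins. In the same comparison 2 of the 3 RAGE ligands were called, S100A9 higher (1.45, SE 0.53) and S100A4 lower (-0.66, SE 0.25) at 4 h. These 5 calls had edgeR q values of 0.0672 to 0.0914, and all 5 were lost with Benjamini-Hochberg adjustment, without a filter on low counts, and with single animals left out, 15-97 and 16-120 among them for each.

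Markers of other lung cells moved in the 4 h group in which HOPX rose and RTKN2 fell. Each list is small, and 7.4% of all genes were called in that comparison. Of 8 type 2 cell genes, 3 were called, all upward, namely LAMP3 (log2 1.25), SFTPC (1.13) and ABCA3 (0.93). The summed level of the 8 was 13200 to 19700 CPM there and 8640 to 13200 CPM in controls. Of 3 immune genes tested, CD3E (log2 -2.09) and PTPRC (-1.28) fell, and the summed level of the immune list was 14.5 to 30.5 CPM against 40.6 to 54.6 CPM in controls. In endothelium 1 of 6 genes was called, the VEGF receptor KDR (log2 -1.16), with summed levels of 2790 to 3710 CPM against 2980 to 3510 CPM. Of 4 lymphatic genes 1 was called, PROX1 (log2 -1.2), a call lost without control 15-101 or 16-113, and the sums overlapped (127 to 175 CPM against 158 to 175 CPM). None of 4 airway, 4 mesenchymal, 2 mesothelial, 3 erythroid and 2 skeletal muscle genes was called against control at 4 h. Mesothelial sums overlapped, at 17.6 to 39.4 CPM against 6.09 to 34.2 CPM in controls. Between the early groups, where 6.74% of all genes were called, 7 genes of these lists were called. KDR (log2 -0.86), PROX1 (-1.41), CD3E (-2.02), PTPRC (-1.1) and the red cell genes HBA1 (-2.92) and SLC4A1 (-2.93) were lower at 4 h after the clinical drug than at 6 h after Beta-Ac, and the mesothelial gene MSLN (1.24) was higher. HBA1 and PROX1 were at low levels. HBA1 was at 0 to 0.232 CPM at 4 h after the clinical drug and at 0.141 to 2.89 CPM at 6 h after Beta-Ac. PROX1 was at 0.626 to 0.972 CPM and at 2.12 to 2.33 CPM in the same groups. The calls of HBA1, SLC4A1 and MSLN were lost with Benjamini-Hochberg adjustment and without animal 15-85, 15-97 or 17-254, and that of PTPRC without 16-131 or 17-254. Between 4 h and 5 days after the clinical drug 10.4% of all genes were called. The 4 h animals had lower KDR (-1.23), PROX1 (-1.41), CD3E (-2.08) and PTPRC (-1.22) than the 5-day animals. They had higher VWF (1.13), LAMP3 (1.19) and SFTPC (0.9), the last a call lost without 16-120. The part of these cell types in the levels of HOPX and RTKN2 was not tested.

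Hippocampus of fetuses from the same study, which has no alveolar epithelium, gave a contrast in tissue. It comprised 15 libraries, 5 from controls and 10 from treated fetuses at 5 days, counted in a separate table with its own normalization, so levels are set side by side without a test. Library names and treatment labels named different drugs for all 10 treated libraries, so their levels are not split by drug here. Only the check for outlying libraries, given further below, grouped them by library name. The names of 9 libraries carry the numbers of lung animals, so the tissues may come in part from the same fetuses. AGER had a median of 6.66 CPM there (4.25 to 10.1) and 1160 CPM in lung. The medians were 6.71 CPM (2.8 to 10.1) against 855 CPM for CAV1, 4.05 CPM (2.36 to 10.4) against 290 CPM for CLIC5 and 5.63 CPM (4.16 to 6.75) against 192 CPM for RTKN2. For these 4 genes every lung library lay above every hippocampus library. The lung to hippocampus ratio of medians was 175 for AGER, 127 for CAV1, 71.6 for CLIC5 and 34.1 for RTKN2.

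HOPX and PDPN did not separate the tissues. HOPX had a median of 167 CPM in hippocampus (110 to 276) and 184 CPM in lung, a ratio of 1.1. PDPN had medians of 28.3 and 29.5 CPM, a ratio of 1.04. HOPX, the gene called up at 4 h, thus overlapped between the tissues. AKAP5, a scaffold protein that anchors protein kinase A, was matched in the hippocampus table alone, where it was at 17.1 to 52.9 CPM with a median of 43.3 CPM.

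**Figure D5:**
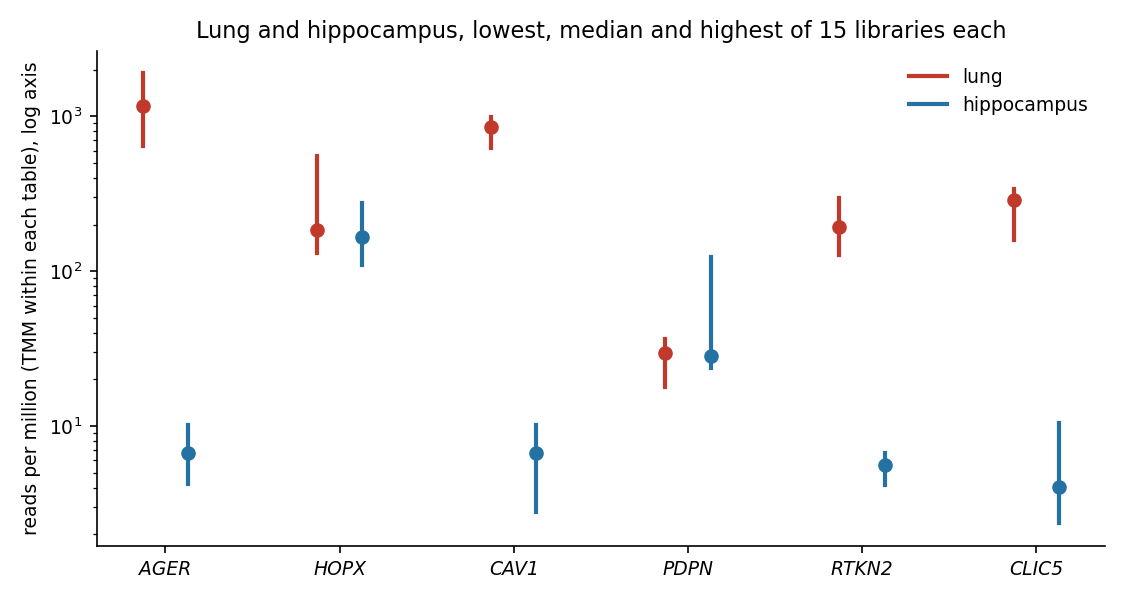
Lowest, median (point) and highest level of each of the 6 genes in 15 lung and 15 hippocampus libraries, in CPM on a log axis, normalized within each table. The medians of AGER stand at 1160 and 6.66 CPM, while those of HOPX stand at 184 and 167 CPM.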

How the data were processed

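Lung values were whole-number read counts per Ensembl gene, as deposited by the authors, without normalization or filtering. The study's methods name Bowtie 2, the rhesus build MMUL1.0 and featureCounts, whereas the submitters' processing notes for lung name Bowtie 1.2.1.1 and featureCounts 1.5.1. Neither aligner splits reads over introns, so genes with short exons may lose reads. Whether counting used strand is not given in the sources used here, and in the RefSeq annotation HOPX, CAV1 and CLIC5 overlap noncoding genes and AGER overlaps PBX2, so their counts may hold reads of these. Gene positions were used only to find these overlaps, no genome sequence was used, and symbols came from a table of Ensembl identifiers.

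Counts were analysed with edgeR 4.0.16 in R 4.3.3 by TMM normalization and the quasi-likelihood F-test in 1 fit of 15 libraries, over 17644 genes that reached 7 reads in 3 or more libraries. Calls required a 1.5-fold difference or more, Storey q under 0.1 and p under 0.05. SEs are the log2 fold change divided by the square root of F. Log2 CPM for correlations used a prior count of 2. The procedure was tested on simulated counts. DESeq2 1.42.0 was 1 of the alternatives. The spread between animals, not counting error, sets the precision. The 8 genes and all lists were chosen with earlier results of these data known. Named were all 8 genes, of each list genes called and extremes, and the 5 genes most like AGER. Other genes were named for their role, and 1 gene of the further type 1 list is counted but not reported here by name.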

Additional observations from a re-analysis of the deposited data

Results flagged for a closer look

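Effects on HOPX differed between the early groups, as the direct comparison of the clinical drug at 4 h with Beta-Ac at 6 h passed the thresholds of edgeR's test with a log2 difference of 1.18. All 3 clinical drug animals were above all 3 Beta-Ac animals. HOPX also differed between the 2 times after the clinical drug, by 1.77 on the log2 scale, as did CLIC5 in the other direction, with -0.62. Animals 15-81 and 16-120 each decided the CLIC5 call.

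In hippocampus, PDPN in the control library CTL212 was at 124 CPM and stood apart from the other 4 controls, at 23.8 to 28.3 CPM. The gap was 0.955 of the whole range of the group. It was 1 of 21 combinations of gene and group examined, and chance alone flags about 1 in 20. That rate belongs to the cut-off for a flag and not to a gap as large as 0.955. The treated groups among the 21 followed the library names, which the treatment labels contradict, while the control group does not depend on them. The next highest hippocampus library was at 39.5 CPM. Lung groups of 3 animals were too small for this rule.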

How the results depend on the processing

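HOPX kept its direction and its call at 4 h after the clinical drug under all 8 alternatives and with each of the 6 animals left out, with edgeR or DESeq2 adjusted p-values of 5.45e-13 to 0.00471. The number of the 6 genes called there fell from 2 to 1 without a filter on low counts and to 1 with Benjamini-Hochberg adjustment, since RTKN2 was lost, and it was 1 to 2 with an animal left out. Over all genes, the 1306 calls of 17644 tested became 1050 of 24704 without that filter and 1099 of 17644 with that adjustment. Between 4 h and 5 days after the clinical drug the number of the 6 genes called was 1 to 2 with an animal left out. Genes with every animal beyond every control numbered 2 to 4 at 4 h after the clinical drug, 4 without animal 15-97, and 1 to 2 at 5 days, 2 without 15-92 or 16-113. A smaller group separates more easily by chance. Shares over all genes are not given with an animal left out, so these rises are not read as results. Of the further type 1 genes called at 4 h, 2 became 4 with DESeq2 or without a fold threshold. Over all genes, 1306 calls became 1297 with DESeq2 and 2104 without a fold threshold. For Beta-Ac at 6 h 0 further type 1 genes became 2 with DESeq2 or the likelihood ratio test, while over all genes 78 calls became 247 with each. CLDN18, SCNN1G and CAVIN2 were called at 4 h under all 8 alternatives and with each of the 6 animals left out. Regulators of type 1 fate and YAP targets called at 4 h numbered 2 without a fold threshold, the setting that called 2104 of all 17644 genes.

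Direction changed in 26 of the values with 1 animal left out, in 16 results, none of them called, and in none under another setting. Log2 fold changes against control then ran from -0.15 to 0.17 for PDPN at 4 h. At 6 h after Beta-Ac they ran from -0.09 to 0.55 for AGER, -0.04 to 0.23 for HOPX, -0.23 to 0.02 for CAV1 and -0.2 to 0.04 for CLIC5. At 5 days after the clinical drug they ran from -0.16 to 0.38 for AGER and -0.17 to 0.08 for PDPN. At 5 days after Beta-Ac they ran from -0.01 to 0.61 for AGER, -0.14 to 0.05 for HOPX and -0.13 to 0.24 for RTKN2, and with both drugs at 5 days from -0.05 to 0.49 for AGER and -0.28 to 0.06 for RTKN2. Between the drugs at 5 days they ran from -0.5 to 0.12 for AGER and -0.05 to 0.1 for CLIC5. Between times they ran from -0.13 to 0.2 for PDPN (clinical drug) and -0.42 to 0.28 for AGER (Beta-Ac). The causes were not tested. No paired analysis was possible because the lung groups compared share no animal numbers, and the lung labels give no replicate number that would pair them.

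With 3 animals in a group the spread between animals limits what could be detected, most of all for AGER, with an SE of 0.35. Depth was 14.1 to 45 M reads, and PDPN had the fewest reads.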
